A study of Drosophila melanogaster with 9 samples.

Results

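Indirect flight muscle of male Mhc7 flies was compared with that of Canton-S, a wild-type laboratory strain, to describe what loss of myosin heavy chain from this muscle goes with across muscle genes and pathways. The comparison takes 6 of the 9 arrays, 3 of Mhc7 and 3 of Canton-S, and all 18769 probe sets that are no Affymetrix controls, of 18952 on the array. Mhc7 flies carry an allele of the myosin heavy chain gene, which the study calls a null of flight muscle myosin. Act88FKM88 flies carry a null allele of Act88F, the flight muscle actin gene, and their 3 arrays are used for the estimate of the spread and for a direct comparison of both mutants. Canton-S flies carry neither allele. Flies of all groups were adult males, 1 to 2 days old, kept at 25 °C with 12 h of light a day. Their thoraces stood overnight in 70% ethanol before dissection, and 6 µg of total RNA was labelled for each array. The study describes the 3 arrays of a genotype as independent biological replicates, and says nothing here of how many flies each holds. Each mutant is 1 line, so effects of its allele and of other differences between its genome and that of Canton-S cannot be told apart.

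Flight muscle sarcomeres are built from thick filaments of myosin and thin filaments of actin, held in register by the M-line and the Z-disc and joined by long elastic proteins. In Drosophila, 1 myosin heavy chain gene, Mhc, makes all muscle myosin heavy chains by alternative splicing, and alleles such as Mhc7 leave indirect flight muscle without thick filaments while the fly survives. Chaperones fold the proteins of the sarcomere, and the proteasome removes those that are damaged or in excess.

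Values are log2 levels made by the authors with RMA (robust multi-array average), so a difference of 1 is a 2-fold change. To pass, a probe set needed an adjusted p (Benjamini-Hochberg, limma) under 0.1 and a change of 2-fold or more, which are the limits of the study, and rose and fell are written only of what passed. A gene with several probe sets is represented by the one with the highest mean over the 9 arrays. Differences are Mhc7 minus Canton-S with the standard error of the fit (n = 3 arrays per genotype). In bulk tissue, fewer cells of a type and less RNA per cell cannot be told apart.

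The arrays differed in shape as well as between genes. The 95th percentile of log2 levels was 7.77, 8.15 and 8.05 in the Mhc7 arrays, against 7.26, 7.35 and 7.47 in the Canton-S arrays (exact permutation p = 0.1, the smallest that 3 against 3 arrays allow, two-sided). The 99th percentile was 11.77 to 11.89 in Mhc7, and in Canton-S it was 11.61 and 11.65 on 2 arrays and 11.08 on Canton-S 1. Correlations between arrays were 0.98 to 0.987 within Mhc7, 0.978 to 0.983 within Canton-S and 0.956 to 0.977 between them. For Mhc7 against Canton-S, every list was therefore also computed after 3 rescalings. These were quantile normalization repeated on the 9 arrays, removal of each array's trend with intensity, and centring on cytosolic ribosomal protein genes. Centring moved the median of all genes by -0.33, and relative to that shift list medians stayed within 0.01 of those given here, so directions are discussed for the other 2 rescalings. All lists and members were chosen with earlier results of these data known.

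Both genotypes had high transcript levels of the genes listed here as markers of indirect flight muscle, not all of which need be particular to this muscle. Act88F, the actin gene of this muscle, stood at 14.10, 14.25 and 14.14 in Mhc7, against 14.10, 14.32 and 14.36 in Canton-S. Its difference was -0.10 ± 0.17 (limma adjusted p = 0.858), and the arrays of both genotypes overlapped. The mean over 6 flight muscle markers lay at 12.84 to 12.99 in Mhc7 and 12.16 to 12.53 in Canton-S. Of these 6 markers 2 rose (33.3%, against 5.1% of all genes at these levels), Zasp66 by 2.02 and Mf by 1.22. The other 4 did not pass, and Act88F (-0.10) and TpnC4 (-0.68) were lower. The list median of 0.30 was 0.06 after repeated quantile normalization and turned to -0.23 after removal of intensity trends. The transcript of Mhc itself was not analysed here, because no probe set carries that gene name in the annotation used. Markers of fat body, gut, neurons and glia, trachea, head and eye, heart, hemocytes, and tendon and muscle precursors had no member that passed. The measured members numbered 6, 8, 8, 5, 3, 3, 8 and 3 (limma, 3.56% of all genes passed). Over all probe sets 3155 had an unadjusted p under 0.05. At these levels 16.2%, 3.7%, 0.566%, 10.7%, 0.0569%, 0.0569%, 1.08% and 0.0569% of all genes rose. Those that fell were 1.39%, 0.26%, 0.28%, 0.881%, 0.102%, 0.102%, 0.459% and 0.102%. Lists this small, at mostly such low shares, cannot show whether the amount of other tissue differed. The list means of 3 of the other cell types did not overlap between genotypes. The mean of 8 hemocyte markers was 3.36 to 3.53 in Mhc7 and 3.60 to 3.69 in Canton-S. The mean of 3 tendon and muscle precursor markers was 2.73 to 2.80 in Mhc7 and 2.89 to 2.97 in Canton-S. The mean of 18 testis and accessory gland genes was 2.75 to 2.80 in Mhc7 and 3.02 to 3.12 in Canton-S, with a median difference of -0.09. Without Sfp53D, described with the largest changes, that mean was 2.74 to 2.82 in Mhc7 and 2.83 to 2.88 in Canton-S. Their part in the results was not tested.

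The fit gave 451 probe sets that passed higher in Mhc7 and 73 that passed lower, 524 in all or 2.79% of those tested (2.4% higher and 0.389% lower). Higher calls made up 86.1% of these, but 54.1% after repeated quantile normalization, 62.9% after removal of intensity trends and 54.7% after centring on cytosolic ribosomal proteins. By representative probe set, 374 of 11982 genes rose (3.12%) and 53 fell (0.442%), and the median difference of all genes was 0.00. In 14.4% of genes every Mhc7 array lay above every Canton-S array, and in 9.99% every Mhc7 array lay below (11.8% and 10.3% of probe sets). The share of calls varied with level. Of genes with a mean log2 level of 6 to 8, 20% rose, and the median difference was 0.49. At 8 to 10, 29.2% rose with a median of 0.73, and at 10 to 12, 15.3% rose with a median of 0.54. None of the 89 genes above 12 passed, with a median of 0.32, and of the 8783 genes below 4, 0.0569% rose. For the main lists the share of members that rose or fell is therefore given beside the share of all genes at their levels, which averages these shares over the level of each member. Arrays that did not overlap also varied with level. Every Mhc7 array lay above every Canton-S array in 48.7% of genes at 6 to 8, 65.6% at 8 to 10, 67.9% at 10 to 12 and 68.5% above 12.

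**Figure D1:**
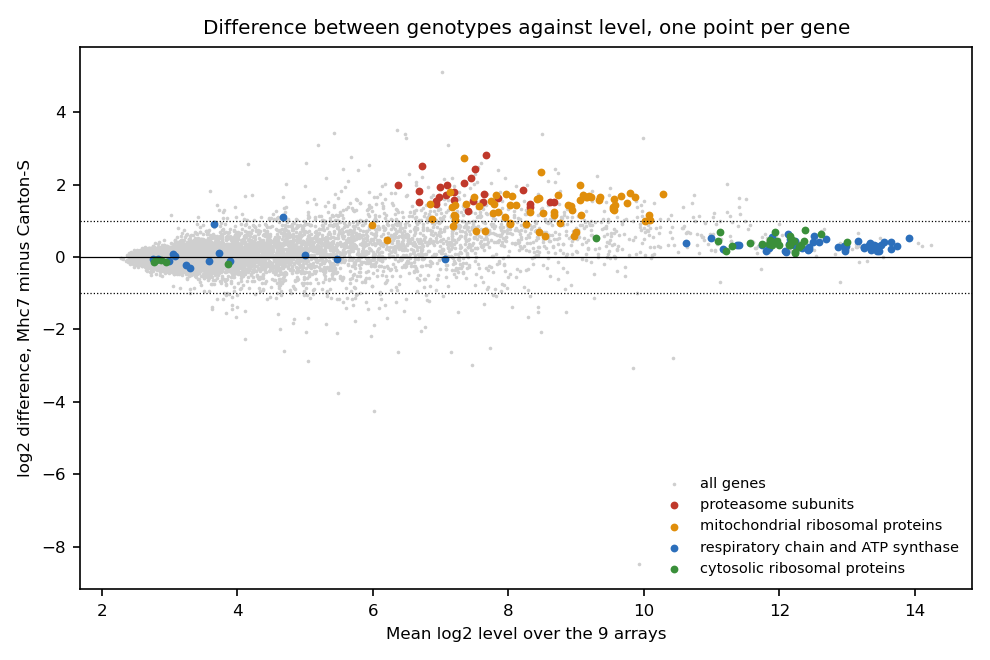
Log2 difference, Mhc7 minus Canton-S, against the mean log2 level over the 9 arrays, with a point for each of 11982 genes and 4 gene lists coloured. Dotted lines mark 2-fold. Proteasome and mitochondrial ribosomal protein genes lie mostly above the upper line, while respiratory chain and cytosolic ribosomal protein genes at high level lie between 0 and that line.

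Transcripts of the proteins that build or bind the thick filament were present at high level in muscle without myosin heavy chain. Of 10 listed genes 9 were measured, 1 rose (11.1%, against 10% of all genes at these levels) and none fell. The median difference of 0.36 was 0.04 after repeated quantile normalization and turned to -0.18 after removal of intensity trends. The other member, Mhc, was not analysed here. The essential light chain gene Mlc1 stood at 14.24, 14.40 and 14.11 in Mhc7, against 13.73, 14.01 and 14.09 in Canton-S. The regulatory light chain gene Mlc2 stood at 13.13, 13.17 and 13.06 in Mhc7, against 12.62, 13.12 and 12.98 in Canton-S. Their differences were 0.31 ± 0.11 (adjusted p = 0.208) for Mlc1 and 0.21 ± 0.13 (adjusted p = 0.492) for Mlc2, so neither partner of the missing heavy chain passed.

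Flightin, encoded by fln, binds the myosin rod and sets the stiffness of the thick filament. Its level was 14.18, 14.34 and 14.15 in Mhc7, against 13.65, 13.94 and 13.91 in Canton-S, with every Mhc7 array higher. The difference of 0.39 ± 0.11 had an adjusted p of 0.0904 and was under 2-fold. Paramyosin, encoded by Prm, forms the thick filament core, and its difference was 0.31 ± 0.14 (adjusted p = 0.302). Myofilin, the product of Mf, is another protein of the thick filament. The representative probe set of Mf stood at 11.44, 11.76 and 11.73 in Mhc7, against 10.20, 10.27 and 10.80 in Canton-S, and rose by 1.22 ± 0.26 (adjusted p = 0.0264). This call was lost without Canton-S 1 or without Mhc7 3 (adjusted p up to 0.111) and in all 3 rescalings. A second probe set of Mf stood at 8.21, 7.52 and 8.44 in Mhc7, against 8.13, 9.86 and 9.98 in Canton-S, and did not follow it (-1.27 ± 0.65, adjusted p = 0.381).

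The connecting filaments gave values in the same range. Projectin, encoded by bt, links the thick filament to the Z-disc, and its difference was 0.57 ± 0.20 (adjusted p = 0.182). The titin-like gene sls had 8.64, 8.85 and 8.56 in Mhc7, against 8.23, 7.63 and 7.52 in Canton-S, a difference of 0.89 ± 0.27 (adjusted p = 0.12). It had an adjusted p of 0.0492 and passed without Canton-S 1. Obscurin, encoded by Obsc, sits at the M-line, and its level was 12.34, 12.42 and 12.23 in Mhc7, against 11.98, 12.35 and 12.08 in Canton-S. Its difference was 0.19 ± 0.21 (adjusted p = 0.738), and the arrays overlapped.

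Strn-Mlck, a titin-family kinase gene of the thick filament, gave opposite readings from its probe sets. The set with the higher level stood at 13.02, 13.11 and 13.02 in Mhc7, against 12.50, 12.91 and 12.67 in Canton-S (0.36 ± 0.11, adjusted p = 0.12). Another set stood at 6.25, 7.08 and 6.29 in Mhc7, against 8.21, 8.52 and 8.65 in Canton-S. It fell by 1.92 ± 0.26 on the log2 scale (adjusted p = 0.00334). Which transcripts each set reads was not analysed here.

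No measured thin filament gene passed (11.8% of all genes at these levels rose and 0.872% fell). Of 20 listed genes 12 were measured, with a median of 0.18, which turned to -0.08 after repeated quantile normalization and to -0.14 after removal of intensity trends. At an unadjusted p under 0.05 there were 4, TpnC4, Tm2, sals and cpa, each under 2-fold. TpnC4, the troponin C isoform of stretch activation in flight muscle, stood at 12.35, 12.57 and 12.29 in Mhc7, against 12.85, 13.16 and 13.24 in Canton-S. Every Mhc7 array lay below every Canton-S array, at -0.68 ± 0.12 (adjusted p = 0.0111), short of 2-fold. It passed lower after removal of intensity trends and after centring. The tropomyosin gene Tm2 had a difference of 0.32 ± 0.11 (adjusted p = 0.191), and up, which encodes the troponin T of flight muscle, of 0.17 ± 0.11 (adjusted p = 0.512).

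Proteins that set the length of the thin filament were also measured. Sarcomere length short, encoded by sals, stood at 9.25, 9.75 and 9.43 in Mhc7, against 8.66, 8.84 and 8.99 in Canton-S, a difference of 0.65 ± 0.20 (adjusted p = 0.122). The pointed-end cap gene tmod varied within both genotypes, at 8.37, 6.39 and 7.80 in Mhc7 and 5.75, 7.69 and 7.82 in Canton-S. Actin and troponin C genes of other muscles varied in the same way. Act79B, the actin of the jump muscle and other thoracic muscles, stood at 10.18, 9.60 and 11.25 in Mhc7, against 9.31, 11.62 and 12.17 in Canton-S. TpnC41C, a troponin C of such muscles, stood at 6.59, 6.81 and 7.83 in Mhc7, against 6.76, 8.98 and 10.03 in Canton-S. Canton-S 1 was low for both, and their adjusted p values were 0.762 and 0.451.

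Of the sarcomere lists, the Z-disc and its assembly factors held the most calls. Of 16 measured genes 3 rose (18.8%, against 13.6% of all genes at these levels) and none fell, with a median of 0.55 that stayed above 0 in all rescalings. After repeated quantile normalization Zasp66 alone rose, and cher and l(2)efl fell. Zasp66, a PDZ protein of the Z-disc, stood at 11.87, 11.86 and 11.90 in Mhc7, against 9.55, 10.10 and 9.91 in Canton-S. The groups were far apart, and Zasp66 rose by 2.02 ± 0.13 (adjusted p = 0.000101), a call kept in all rescalings and without any array. All 3 of its probe sets rose, by 2.02, 1.96 and 1.26.

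The formin gene Fhos, whose product elongates actin filaments in growing myofibrils, stood at 9.28, 9.25 and 8.91 in Mhc7, against 7.89, 7.79 and 8.23 in Canton-S, and rose by 1.18 ± 0.17 (adjusted p = 0.00473). In all 3 rescalings Fhos and the representative set of Mlp60A did not pass. The muscle LIM protein gene Mlp60A stood at 11.09, 11.67 and 11.29 in Mhc7, against 9.97, 10.20 and 10.53 in Canton-S. It rose by 1.12 ± 0.17 (adjusted p = 0.00572), and without Canton-S 1 or without Mhc7 2 the difference was under 2-fold (0.96 at the lowest). Its other probe sets rose by 1.46 and 1.55. Alpha-actinin, encoded by Actn, cross-links thin filaments in the Z-disc, and Zasp52 anchors there. Actn stood at 11.85, 12.04 and 11.96 in Mhc7, against 10.98, 11.38 and 11.19 in Canton-S. Their differences of 0.77 ± 0.14 and 0.73 ± 0.13 (adjusted p = 0.0115 for each) were under 2-fold. The LIM gene Lmpt gave 0.79 ± 0.10 (adjusted p = 0.00234) from its representative set and rose by 1.22 ± 0.09 (adjusted p = 0.000355) from another, which did not pass in any of the 3 rescalings (0.48, 0.71 and 0.88).

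Members that did not pass went both ways. The chaperone Unc-45 folds the myosin head, and unc-45 stood at 7.12, 8.69 and 7.95 in Mhc7, against 6.52, 5.71 and 7.12 in Canton-S. No Mhc7 array lay below a Canton-S array, and the difference of 1.47 ± 0.44 had an adjusted p of 0.116. It passed without Canton-S 3 and without Mhc7 1 (adjusted p down to 0.0474). The formin gene DAAM stood at 2.66, 2.94 and 2.87 in Mhc7, against 3.57, 4.19 and 3.26 in Canton-S, at -0.85 ± 0.21 (adjusted p = 0.0522), near the median of all probe sets. The filamin gene cher had -0.64 ± 0.22 (adjusted p = 0.164), and the small heat shock gene l(2)efl had -0.47 ± 0.19 (adjusted p = 0.246).

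**Figure D2:**
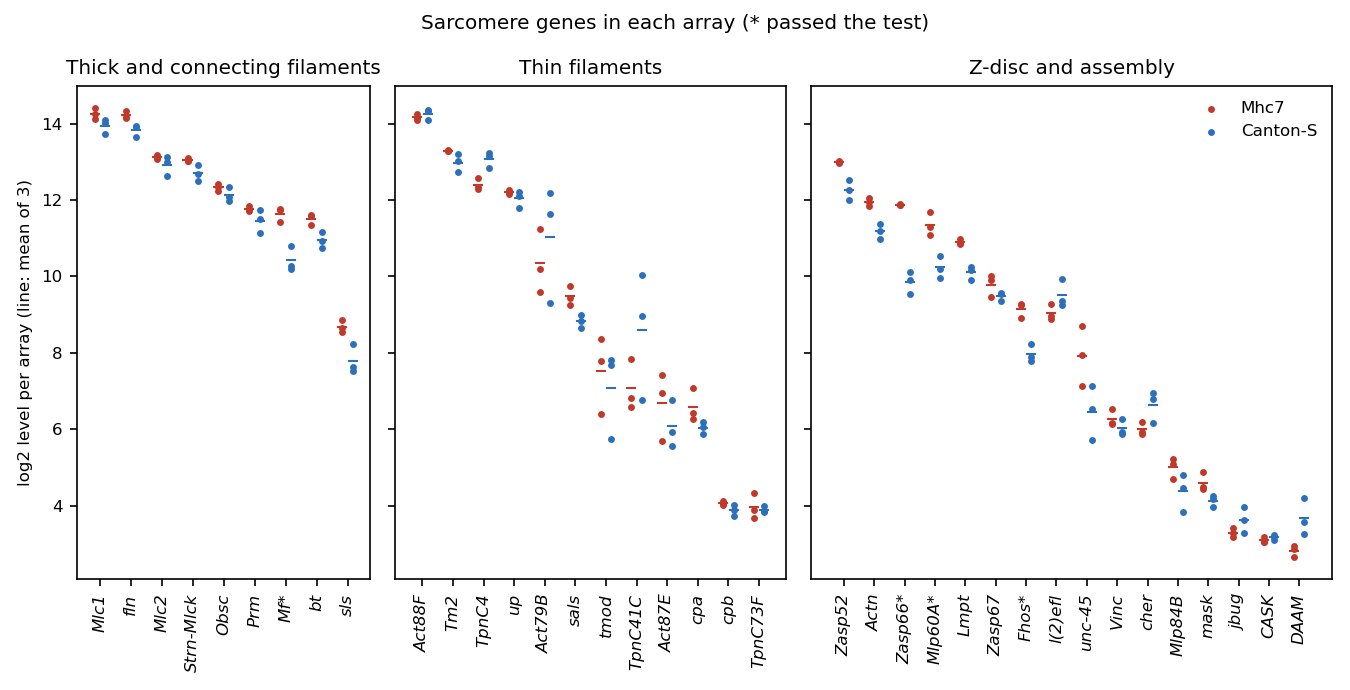
Log2 level in each of the 3 Mhc7 arrays (red, left) and the 3 Canton-S arrays (blue, right) for the measured genes of the thick and connecting filaments, the thin filaments, and the Z-disc and assembly lists, each by its representative probe set, with lines at the means. The starred genes Mf, Zasp66, Mlp60A and Fhos passed, while Act88F and the myosin light chain genes Mlc1 and Mlc2 lie close together in both genotypes.

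Genes of muscle attachment, fate and calcium handling held 2 calls, both falls. Of 20 measured genes of integrin attachment and basement membrane, 2 fell (10%, against 1.17% of all genes at these levels). None rose, while 9.79% of all genes at these levels did, and the median was -0.13. After repeated quantile normalization 4 fell, after removal of intensity trends 3 and after centring 2, with medians of -0.49 and -0.47 in the first 2. The 2 falls on the deposited values were Tsp, the thrombospondin of the muscle to tendon junction (-1.16 ± 0.32, adjusted p = 0.0816), and the laminin gene LanA (-1.01 ± 0.29, adjusted p = 0.0992). The Tsp call was lost without Canton-S 1 or 2, Act88FKM88 1 or any 1 Mhc7 array (adjusted p up to 0.244). The LanA call was lost without any 1 Canton-S array, Act88FKM88 1 or 3, or Mhc7 1 or 3 (adjusted p up to 0.283). Of 8 measured regulators of flight muscle fate and splicing, none passed (4.08% of all genes at these levels rose and 0.787% fell). The gene salr, a spalt-family selector of flight muscle fate, stood at 4.75, 4.45 and 4.80 in Mhc7, against 4.33, 4.54 and 4.02 in Canton-S (0.36 ± 0.14, adjusted p = 0.219).

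Of 21 measured calcium handling genes none passed (12% of all genes at these levels rose and 0.95% fell), and the median was 0.07. The pump gene SERCA had a difference of 0.28 ± 0.22 (adjusted p = 0.602). The calcineurin regulator gene sra stood at 6.38, 6.89 and 6.96 in Mhc7, against 5.75, 5.94 and 6.10 in Canton-S, a difference of 0.81 ± 0.16 (adjusted p = 0.0227) that was short of 2-fold. Of 13 measured genes of actin turnover, 1 rose (7.69%, against 10.6% of all genes at these levels). This was tsr, which encodes cofilin, at 9.78, 10.33 and 10.22 in Mhc7 and 8.76, 9.05 and 9.24 in Canton-S (1.09 ± 0.22, adjusted p = 0.0208), and it was under 2-fold without Canton-S 1 or without Mhc7 2 (0.96 at the lowest). It did not pass in any of the 3 rescalings, where tsr differed by 0.32, 0.59 and 0.76. Of 12 tubulin and microtubule genes 1 fell (8.33%, against 0.845% of all genes at these levels). This was shot, a spectraplakin, which fell by 1.48 ± 0.41 on the log2 scale (adjusted p = 0.0865). The shot call was lost without Canton-S 1 or 2, Act88FKM88 1, or Mhc7 1 or 3 (adjusted p up to 0.259).

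The proteasome list moved as a whole. The proteasome degrades ubiquitin-tagged proteins with a core particle that holds the protease sites and a regulatory particle that unfolds substrates. All 26 measured subunit genes of 32 listed rose, against 21.8% of all genes at these levels. Their differences ran from 1.28 to 2.82 with a median of 1.69. The 12 core genes had a median of 1.58 and the 14 regulatory genes of 1.73. The mean over the 26 genes was 8.13 to 8.52 in the Mhc7 arrays and 6.28 to 6.78 in the Canton-S arrays, with no overlap. In each subunit every Mhc7 array was higher, against 48.7% of all genes at a level of 6 to 8 and 65.6% at 8 to 10. Counts that rose were 13 after repeated quantile normalization, 19 after removal of intensity trends and 25 after centring, with medians of 1.16 and 1.23 in the first 2.

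Prosbeta4, a core subunit gene, stood at 8.78, 8.75 and 9.15 in Mhc7, against 5.74, 5.94 and 6.54 in Canton-S, and rose by 2.82 ± 0.27 (adjusted p = 0.00115). The core genes Prosalpha6 and Prosalpha2 rose by 2.50 ± 0.30 (adjusted p = 0.00206) and 2.43 ± 0.28 (adjusted p = 0.00203). The regulatory scaffold gene Rpn2 stood at 8.48, 8.22 and 8.81 in Mhc7, against 6.24, 6.23 and 6.51 in Canton-S, and rose by 2.18 ± 0.31 (adjusted p = 0.00435). These 4 calls were kept in all rescalings and without any array.

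Genes that feed the proteasome did not follow as a list. Of 12 assembly factors, activators and substrate delivery genes 2 rose (16.7%, against 11.3% of all genes at these levels). TER94, which encodes the p97 segregase that extracts ubiquitinated proteins, stood at 9.19, 9.54 and 9.38 in Mhc7, against 7.38, 7.30 and 7.46 in Canton-S, and rose by 1.99 ± 0.16 (adjusted p = 0.000416). Its cofactor gene Ufd1 rose by 1.23 ± 0.21 (adjusted p = 0.0111) but did not pass after centring (0.90). Of 19 genes for ubiquitin, its enzymes and ligases, 1 rose and 1 fell (5.26% each, against 12.8% and 0.928% of all genes at these levels). Ubc6, an E2 enzyme gene, rose by 1.22 ± 0.19 (adjusted p = 0.00582), which did not pass in any of the 3 rescalings. SkpB fell (described with the largest changes).

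The autophagy and lysosome list had 3 of 30 genes that rose (10%, against 7.89% of all genes at these levels), with a median of 0.22. After repeated quantile normalization none rose (median 0.09), after removal of intensity trends Atg8a alone (median 0.12), and after centring 2. Atg8a, the ubiquitin-like protein of the autophagosome membrane, stood at 10.83, 10.48 and 10.63 in Mhc7, against 8.58, 9.23 and 9.48 in Canton-S, and rose by 1.55 ± 0.21 (adjusted p = 0.00309). The receptor gene ref(2)P, the p62 homologue that binds ubiquitinated cargo, stood at 6.86, 6.05 and 7.24 in Mhc7, against 4.67, 4.53 and 5.55 in Canton-S (1.80 ± 0.44, adjusted p = 0.0548). The kinase gene Atg1 rose by 1.26 ± 0.34 (adjusted p = 0.0797). The ref(2)P call was lost without Canton-S 1 or 2 or Mhc7 1 or 3 (adjusted p up to 0.194). The Atg1 call was lost without Canton-S 1 or 3, Act88FKM88 3, or Mhc7 1 or 3 (adjusted p up to 0.245), and 1 gene of the list rose without Canton-S 1, without Mhc7 1 or without Mhc7 3. Of 15 subunit genes of the vacuolar proton pump 1 rose (6.67%, against 25.1% of all genes at these levels). In 12 every Mhc7 array lay above every Canton-S array, against 65.6% of all genes at a level of 8 to 10. The list median of 0.60 turned to -0.10 after repeated quantile normalization. Vha36-1 rose by 1.01 ± 0.16 (adjusted p = 0.00636), was under 2-fold without Mhc7 2 or without Mhc7 3, and did not pass in any of the 3 rescalings (0.29, 0.52 and 0.68).

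Among chaperones, prefoldin and the CCT chaperonin, which hand over and fold newly made actin and tubulin, gave different counts. All 6 measured prefoldin subunit genes rose (18.9% of all genes at these levels did), with a median of 1.38 and differences from 1.12 to 2.10, against 0 of 8 measured CCT genes, with a median of 0.33 and differences from -0.02 to 0.87. Whether the lists differ was not tested. The share at the levels of the CCT genes alone was not computed. Over the joint list of 15 genes, which holds viaf too, 12.9% of all genes at these levels rose, so prefoldin and CCT are not matched for level. Of the prefoldin genes 1 rose after repeated quantile normalization, 1 after removal of intensity trends and 3 after centring, with medians of 0.81 and 0.91 in the first 2. Pfdn1 stood at 6.26, 7.29 and 6.85 in Mhc7, against 4.64, 4.57 and 4.88 in Canton-S, and rose by 2.10 ± 0.31 (adjusted p = 0.00477) with its call kept in each rescaling. Pfdn6 stood at 7.96, 8.54 and 8.16 in Mhc7, against 6.72, 6.52 and 7.08 in Canton-S, and rose by 1.44 ± 0.22 (adjusted p = 0.00636). CCT7, the CCT gene with the smallest p, stood at 4.77, 5.89 and 5.25 in Mhc7, against at most 4.76 in Canton-S (0.87 ± 0.27, adjusted p = 0.127). It passed without Mhc7 1.

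Of 12 constitutive Hsp70 and Hsp90 system genes, 11 had every Mhc7 array higher, against 48.7% of all genes at a level of 6 to 8. Of the 12 genes 6 rose (50%, against 17.2% of all genes at these levels), with a median of 0.91. These 6 were DnaJ-1, Hsc70-4, p23, Sgt, Droj2 and DnaJ-H. None passed after repeated quantile normalization or removal of intensity trends (medians of 0.39 and 0.58), and 2 rose without Canton-S 1, without Mhc7 3 or after centring. Hsc70-4, the constitutive cytosolic Hsp70, stood at 10.62, 11.06 and 10.95 in Mhc7, against 9.37, 9.50 and 9.63 in Canton-S, and rose by 1.38 ± 0.20 (adjusted p = 0.00415). The Hsp90 cochaperone gene p23 rose by 1.15 ± 0.21 (adjusted p = 0.015), but was under 2-fold without Canton-S 2 and did not pass in any of the 3 rescalings. Of 3 measured heat-inducible genes none passed (2.77% of all genes at these levels rose and 1.05% fell). Hsp26 was at least 6.35 in Mhc7, against 4.71, 4.11 and 6.54 in Canton-S (adjusted p = 0.289), and passed without Canton-S 3. Of 19 genes of endoplasmic reticulum folding and stress none passed (5.72% of all genes at these levels rose and 0.927% fell). PPP1R15, which recruits the phosphatase that restores translation, was nearest, at 7.88, 8.09 and 8.18 in Mhc7, against 6.97, 7.19 and 7.12 in Canton-S (0.96 ± 0.16, adjusted p = 0.00922), and it passed without Canton-S 2 or without Mhc7 1.

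Most mitochondrial ribosomal protein genes rose, a count that fell to 11 of 69 after repeated quantile normalization. These proteins build the ribosome that translates the few mRNAs encoded in mitochondrial DNA. Of 69 measured genes (73 listed) 50 rose and none fell, that is 72.5% against 25% of all genes at these levels. In 64 every Mhc7 array was higher, against 65.6% of all genes at a level of 8 to 10. The median was 1.42, with differences from 0.46 to 2.73. The large subunit had 33 of 44 and the small subunit 17 of 25 genes that rose, with medians of 1.42 and 1.40. The mean over the list was 8.86 to 9.55 in the Mhc7 arrays and 7.62 to 8.20 in the Canton-S arrays, with no overlap. After repeated quantile normalization the median was 0.72, after removal of intensity trends 24 rose (median 0.93) and after centring 38. From 39 to 60 rose in the fits that left out an array.

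mRpL4 stood at 8.22, 9.40 and 8.68 in Mhc7, against 5.94, 5.69 and 6.49 in Canton-S, and rose by 2.73 ± 0.30 (adjusted p = 0.00172). mRpL54 stood at 9.51, 9.94 and 9.78 in Mhc7, against 7.34, 7.12 and 7.73 in Canton-S, and rose by 2.35 ± 0.22 (adjusted p = 0.000861). mRpL24 rose by 1.99 ± 0.25 (adjusted p = 0.00271). All 3 encode proteins of the large subunit, and their calls were kept in all rescalings and without any array.

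Factors that work with this ribosome were among the genes that rose. Of 14 measured genes of mitochondrial translation, DNA maintenance and transcription 4 rose (28.6%, against 10.5% of all genes at these levels), with a median of 0.51. In each of the 3 rescalings 3 rose, and the median was 0.21 after repeated quantile normalization and 0.35 after removal of intensity trends. The release factor gene mRF1, which ends mitochondrial translation at stop codons, stood at 6.73, 7.77 and 7.12 in Mhc7, against 4.31, 3.38 and 4.62 in Canton-S, and rose by 3.10 ± 0.34 (adjusted p = 0.00158). The elongation factor gene mEFTs rose by 1.65 ± 0.29 (adjusted p = 0.0114), the ribosome recycling factor gene mRRF1 by 1.51 ± 0.20 (adjusted p = 0.00321) and TFAM, which packages mitochondrial DNA and starts its transcription, by 1.27 ± 0.14 (adjusted p = 0.00167). TFAM did not pass in any of the 3 rescalings.

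Of 17 measured protein import genes 6 rose (35.3%, against 14.7% of all genes at these levels), with a median of 0.84 (0.16 and 0.33 in the rescalings, where 2 and 3 rose), and 3 rose without Canton-S 1. They included Tim8, a small chaperone of the intermembrane space, at 9.86, 10.28 and 10.05 in Mhc7, against 8.37, 8.35 and 8.84 in Canton-S (1.54 ± 0.20, adjusted p = 0.00272). CG34200, listed as Tom6 of the outer membrane translocase, rose by 1.60 ± 0.27 (adjusted p = 0.00997). Neither passed after repeated quantile normalization. Of 14 mitochondrial chaperone and protease genes 4 rose (28.6%, against 19.6% of all genes at these levels), with a median of 0.78. After repeated quantile normalization 1 rose (median 0.19), after removal of intensity trends 2 (median 0.31) and after centring 2. Afg3l2, a subunit of the inner membrane AAA protease, stood at 10.44, 10.67 and 10.72 in Mhc7, against 8.87, 8.88 and 9.03 in Canton-S, and rose by 1.68 ± 0.14 (adjusted p = 0.000453). The matrix protease gene Lon rose by 1.42 ± 0.25 (adjusted p = 0.0108) and Hsc70-5, the mitochondrial Hsp70, by 1.11 ± 0.16 (adjusted p = 0.00433). Hsc70-5 did not pass in any of the 3 rescalings (0.36, 0.61 and 0.78), and Afg3l2 did not after repeated quantile normalization (0.95).

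The respiratory chain and ATP synthase make the ATP of flight, and their genes are among the highest on these arrays. Of 63 measured genes 1 rose (1.59%, against 2.95% of all genes at these levels). In 35 every Mhc7 array was higher, against 67.9% of all genes at a level of 10 to 12 and 68.5% above 12. The median was 0.29, which turned to -0.01 after repeated quantile normalization and -0.19 after removal of intensity trends. Complexes I, II, III, IV and the ATP synthase had medians of 0.33, 0.54, 0.32, 0.25 and 0.29 over 26, 3, 9, 10 and 15 genes. The exception was UQCR-11 of complex III, at 4.78, 4.82 and 5.38 in Mhc7, against 4.23, 3.70 and 3.77 in Canton-S (1.09 ± 0.22, adjusted p = 0.0206), and it did not pass once Canton-S 2 or Mhc7 3 was left out, after removal of intensity trends or after centring. The mean over the list was 10.64 to 10.69 in Mhc7 and 10.11 to 10.53 in Canton-S, where Canton-S 1 was lowest.

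Of 15 genes of pyruvate dehydrogenase and the citric acid cycle none passed, while 8% of all genes at these levels rose and 0.473% fell. The list median was 0.38 (0.01 after repeated quantile normalization, then -0.10 after removal of intensity trends). Idh3g, a subunit gene of isocitrate dehydrogenase, stood at 12.15, 12.28 and 12.42 in Mhc7, against 11.38, 11.74 and 11.94 in Canton-S (0.60 ± 0.14, adjusted p = 0.0386). Of 18 glycolysis and glycogen genes 1 fell (5.56%, against 0.609% of all genes at these levels). This was AGBE, the glycogen branching enzyme gene, at 8.17, 6.92 and 7.64 in Mhc7, against 8.39, 9.27 and 9.21 in Canton-S (-1.38 ± 0.31, adjusted p = 0.0376). It was lost without Canton-S 2, Canton-S 3 or Mhc7 3 (adjusted p up to 0.132). Of 13 genes of fatty acid oxidation and proline catabolism 2 rose (15.4%, against 20.8% of all genes at these levels). They were the acyl-CoA dehydrogenase gene Arc42 (1.18 ± 0.22, adjusted p = 0.0168) and the carnitine carrier gene colt (1.02 ± 0.15, adjusted p = 0.00541). Neither passed in any of the 3 rescalings, and colt was under 2-fold without Canton-S 1 or without Mhc7 2 (0.88 at the lowest).

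**Figure D3:**
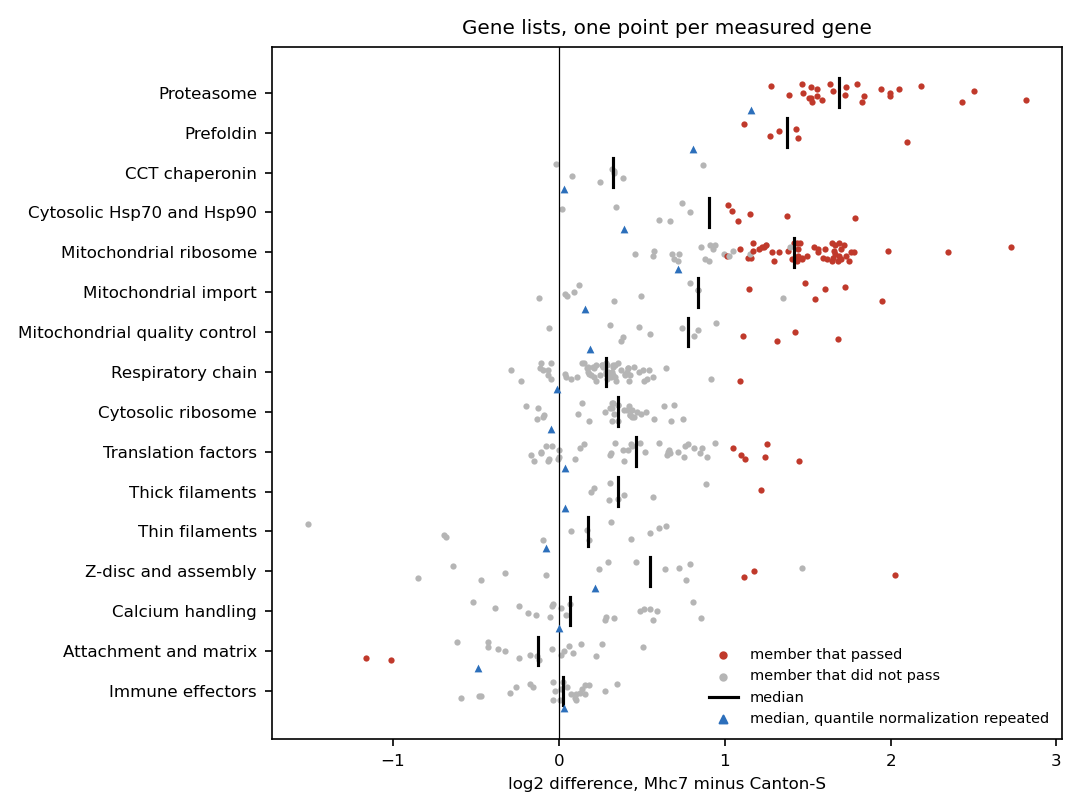
Log2 difference, Mhc7 minus Canton-S, for each measured gene of 16 lists, with red points for genes that passed, grey for those that did not, a bar at the median and a triangle at the median after repeated quantile normalization. Proteasome, prefoldin and mitochondrial ribosome genes lie furthest to the right, and the median of 1.69 for the proteasome is 1.16 at the triangle.

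Cytosolic translation genes gave few calls. Of 34 measured cytosolic ribosomal protein genes (86 listed) none passed, while 6.72% of all genes at these levels rose and 0.347% fell. The list median of 0.36 turned to -0.05 after repeated quantile normalization and -0.10 after removal of intensity trends. In 24 of the 34 every Mhc7 array was higher, against 67.9% of all genes at a level of 10 to 12. The mean over the list was 10.65 to 10.76 in Mhc7 and 10.00, 10.52 and 10.58 in Canton-S. Of 44 initiation and elongation factor genes 6 rose (13.6%, against 14.1% of all genes at these levels), with a median of 0.47 (0.04 and 0.14). None passed in either of these rescalings. The cap-binding gene eIF4E1 stood at 10.44, 10.73 and 10.61 in Mhc7, against 9.03, 9.08 and 9.33 in Canton-S, and rose by 1.45 ± 0.13 (adjusted p = 0.000861). eIF1 and eIF3i, which act in start codon selection and in the scaffold of initiation, rose by 1.26 ± 0.11 (adjusted p = 0.000574) and 1.24 ± 0.11 (adjusted p = 0.00084).

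Of 30 aminoacyl-tRNA synthetase genes 4 rose (13.3%, against 6.29% of all genes at these levels), with a median of 0.52 (0.29 and 0.34). The count was 1 to 5 in the fits that left out an array. Of these TrpRS kept its call in each such fit, and stood at 5.65, 5.69 and 5.97 in Mhc7, against 4.49, 4.29 and 4.76 in Canton-S (1.25 ± 0.16, adjusted p = 0.00287). The count was 1 without Canton-S 2 or Mhc7 2, and 2 without Canton-S 1, Act88FKM88 1 or Mhc7 3. Of 16 genes of ribosome biogenesis none passed (1.81% of all genes at these levels rose and 0.355% fell), with a median of -0.07.

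Genes of detoxification and redox control made up a further group. Of 46 measured glutathione S-transferase and antioxidant genes 11 rose (23.9%, against 7.5% of all genes at these levels) and none fell, and the median was 0.28 (0.08 and 0.03). The count was 4 after repeated quantile normalization, 4 after removal of intensity trends, and 7 without Canton-S 1 or without Mhc7 3. By family, 5 of 34 glutathione S-transferases and 6 of 12 other antioxidant genes rose. GstD1, which conjugates glutathione to toxins, stood at 11.46, 11.53 and 11.71 in Mhc7, against 8.02, 8.07 and 8.71 in Canton-S, and rose by 3.30 ± 0.32 (adjusted p = 0.00115). Gtpx, a glutathione peroxidase homologue, stood at 11.56, 11.55 and 11.77 in Mhc7, against 9.51, 10.01 and 10.18 in Canton-S, and rose by 1.73 ± 0.17 (adjusted p = 0.0012). Both calls were kept in all rescalings and without any array. GstE11 rose by 2.41 ± 0.56 (adjusted p = 0.0423) and the peroxiredoxin gene Prx6c by 2.25 ± 0.64 (adjusted p = 0.096). Both lost the call without Canton-S 1 or 2 or Mhc7 1 or 3, and so did Prx6c when Act88FKM88 1 or Mhc7 2 was left out (highest adjusted p 0.161 for GstE11 and 0.274 for Prx6c).

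Of 83 cytochrome P450 genes, 1 rose (1.2%) and 2 fell (2.41%), against 1.43% and 0.335% of all genes at these levels. The median was 0.00, and 3 rose without Mhc7 2. Cyp6a20 stood at 6.76, 6.89 and 5.77 in Mhc7, against 2.97, 2.97 and 3.17 in Canton-S, and rose by 3.44 ± 0.28 (adjusted p = 0.000474). In Canton-S it lay near the median of all probe sets, where background bounds how large a rise can be measured. Cyp4e1 fell by 1.14 ± 0.24 on the log2 scale (adjusted p = 0.0256), which was lost without Mhc7 3 (adjusted p = 0.11), and Cyp28d1 by 1.13 ± 0.17 (adjusted p = 0.00566). Of 25 immune effector, 18 JNK and cell death, and 15 insulin, TOR and growth genes none passed, with medians of 0.02, -0.05 and 0.10. At the levels of these 3 lists 2.04%, 2.3% and 4.35% of all genes rose, and 0.438%, 0.565% and 0.833% fell. The Activin receptor gene babo stood at 4.12, 4.68 and 4.36 in Mhc7, against 3.67, 3.44 and 3.29 in Canton-S (0.92 ± 0.15, adjusted p = 0.00726). It passed without Canton-S 1 or without Mhc7 1.

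The largest single rise was of pst (pastrel), a gene known in flies for virus resistance. It stood at 9.94, 10.88 and 10.36 in Mhc7, against 4.73, 5.56 and 5.53 in Canton-S, and rose by 5.12 ± 0.29 (adjusted p = 5.28e-05). The groups were far apart. CG32548 followed, at 6.40, 9.60 and 8.52 in Mhc7 and 4.75, 4.39 and 4.88 in Canton-S (3.50 ± 0.68, adjusted p = 0.0188). Sodh2, a sorbitol dehydrogenase gene, stood at 5.38, 6.28 and 5.80 in Mhc7, against 3.34, 3.10 and 3.35 in Canton-S, and rose by 2.56 ± 0.20 (adjusted p = 0.000416). CG8768, CG4627, CG3857 and CG16935 rose by 3.40, 2.59, 2.44 and 2.44. The asparagine synthetase gene AsnS rose by 2.54 ± 0.67 (adjusted p = 0.072) and did not pass once any Canton-S array, Act88FKM88 1, or Mhc7 1 or 3 was left out (adjusted p up to 0.232).

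Falls were fewer, and the largest was of CG15617. It stood at 4.05, 4.07 and 3.69 in Mhc7, against 11.84, 13.04 and 12.39 in Canton-S, and fell by 8.49 ± 0.26 on the log2 scale (adjusted p = 1.96e-06). In Mhc7 it lay near the floor of the arrays, and a larger fall could not have been measured. SkpB, a member of the Skp adaptor family of ubiquitin ligases, stood at 3.50, 3.36 and 3.30 in Mhc7, against 7.21, 7.90 and 7.80 in Canton-S, and fell by 4.25 ± 0.20 (adjusted p = 2.77e-05). Sfp53D, which encodes a seminal fluid protein, stood at 2.54, 2.91 and 3.06 in Mhc7, against 5.32, 7.46 and 6.96 in Canton-S, and fell by 3.74 ± 0.49 (adjusted p = 0.00298). It was the 1 gene of 18 testis and accessory gland genes that passed.

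Genes of the cuticle were also among the falls. Of 88 measured cuticle protein genes 2 fell (2.27%) and 1 rose (1.14%), against 0.363% and 2.44% of all genes at these levels. In 15 every Mhc7 array lay lower and in 3 every Mhc7 array lay higher, against 9.99% and 14.4% of all genes. The mean over the list was 3.68 to 3.93 in Mhc7 and 3.75 to 4.11 in Canton-S, and its part in other falls was not tested. Cpr64Aa stood at 8.51, 10.24 and 9.38 in Mhc7, against 12.26, 12.23 and 12.02 in Canton-S, and fell by 2.80 ± 0.46 (adjusted p = 0.00873). Cpr76Bd fell by 2.17 ± 0.22 (adjusted p = 0.00118), while Cpr66D rose by 1.39 ± 0.24 (adjusted p = 0.01). Ddc, the dopa decarboxylase gene used in cuticle hardening and in making dopamine, stood at 3.50, 4.16 and 3.77 in Mhc7, against 6.13, 6.70 and 4.55 in Canton-S (-1.98 ± 0.46, adjusted p = 0.0409). Ddc did not pass once Canton-S 1 or 2 or Mhc7 1 or 3 was left out (adjusted p up to 0.148).

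Other large falls kept their calls without any array. gkt, a tyrosyl-DNA phosphodiesterase gene of DNA repair, stood at 3.44, 3.37 and 3.41 in Mhc7, against 5.69, 5.53 and 5.77 in Canton-S, and fell by 2.26 ± 0.13 (adjusted p = 5.28e-05). Gyf, of the GIGYF family of translational regulators, stood at 7.58, 7.90 and 7.70 in Mhc7, against 9.36, 10.19 and 9.87 in Canton-S, and fell by 2.08 ± 0.22 (adjusted p = 0.00145). CG17298, CG42323, l(2)34Fc, CG10126 and CG13920 fell by 3.08, 2.63, 2.62, 2.10 and 2.06. CG7409 (-2.99) lost its call without Canton-S 2 or 3 or Mhc7 2 or 3 (adjusted p up to 0.147). CG13314 (-2.59) lost it without any 1 array other than Canton-S 3 (adjusted p up to 0.264).

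**Figure D4:**
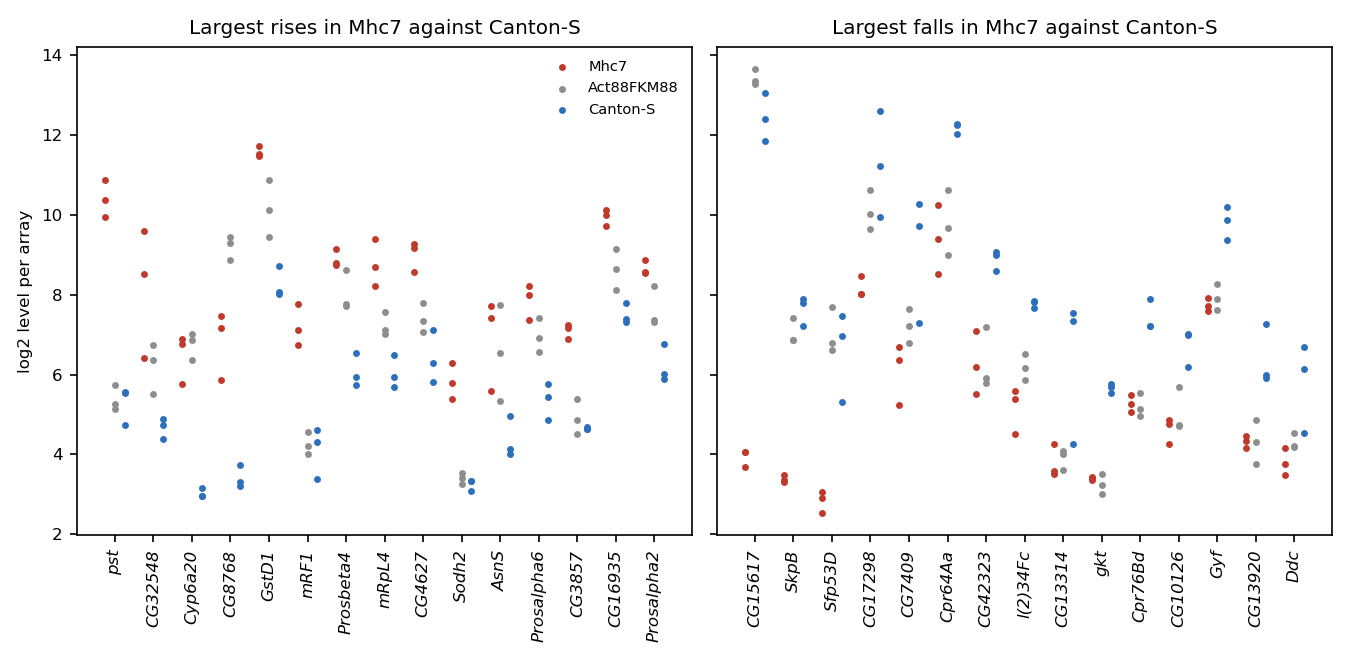
Log2 level in each array for the 15 genes with the largest rise (left) and the 15 with the largest fall (right) in Mhc7 against Canton-S, with Mhc7 in red, Act88FKM88 in grey and Canton-S in blue. CG15617, SkpB and Sfp53D lie low in Mhc7 and high in both other genotypes, while gkt, Cpr76Bd and Gyf are low in both mutants.

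The direct comparison with the actin mutant asked which of these changes differ between loss of myosin and loss of actin. Of 18769 probe sets 336 passed in Mhc7 against Act88FKM88 (1.79%), 194 higher (1.03%) and 142 lower (0.757%), and by gene 2.3% passed, 1.36% higher and 0.943% lower. Act88F stood at 14.10, 14.25 and 14.14 in Mhc7, against 11.57, 11.79 and 11.03 in Act88FKM88, a difference of 2.70 ± 0.17 (adjusted p = 7.79e-05). This is the gene mutated in Act88FKM88. betaTub97EF, a beta-tubulin gene, stood at 10.52, 10.38 and 10.45 in Mhc7, against 3.27, 3.10 and 3.45 in Act88FKM88, and was higher by 7.17 ± 0.13 (adjusted p = 1.2e-08), while it did not pass against Canton-S (0.60 ± 0.13, adjusted p = 0.0278). Obsc stood at 12.34, 12.42 and 12.23 in Mhc7, against 8.67, 9.15 and 8.19 in Act88FKM88, higher by 3.66 ± 0.21 (adjusted p = 4.14e-05).

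Mitochondrial ribosomal protein genes also differed from the actin mutant on the deposited values. No list was computed after rescaling for this comparison. The 95th percentile was 7.70, 7.96 and 7.57 in the Act88FKM88 arrays, against 7.77, 8.15 and 8.05 in the Mhc7 arrays. Of 69 genes 29 were higher in Mhc7 than in Act88FKM88 and none was lower (1.36% and 0.943% of all genes), with a median of 1.00. In 51 every Mhc7 array lay above every Act88FKM88 array (10.7% of all genes, with 8.89% in which every Mhc7 array lay below). Of all 11982 genes 8783 lay below a level of 4, far under this list. Shares at the levels of a list were not computed for this comparison, so how far these counts exceed them was not tested. The mean over the list was 8.86 to 9.55 in Mhc7 and 7.88 to 8.67 in Act88FKM88. mRpL4 was higher by 1.54 ± 0.30 (adjusted p = 0.0358), and mRpL54, at 1.46, had an adjusted p of 0.0105. mRF1 stood at 6.73, 7.77 and 7.12 in Mhc7, against 4.01, 4.55 and 4.20 in Act88FKM88, and was higher by 2.95 ± 0.34 (adjusted p = 0.00332). TFAM was higher by 1.05 ± 0.14 (adjusted p = 0.00628), Lon by 1.05 ± 0.25 (adjusted p = 0.0668) and Afg3l2 by 1.16 ± 0.14 (adjusted p = 0.00335).

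For the proteasome, 1 of 26 genes passed, Rpt4 (1.04 ± 0.25, adjusted p = 0.0769), and none was lower (1.36% of all genes passed higher and 0.943% lower). The median was 0.80, and in 12 genes every Mhc7 array lay above every Act88FKM88 array, against 10.7% of all genes. Of 6 prefoldin genes 3 were higher in Mhc7 (1.36% of all genes), Pfdn1 by 1.38 ± 0.31 (adjusted p = 0.0564), mgr by 1.33 ± 0.27 (adjusted p = 0.0373) and Pfdn6 by 1.12 ± 0.22 (adjusted p = 0.037). These shares of all genes are not matched to the levels of a list. TER94 was higher by 1.27 ± 0.16 (adjusted p = 0.00466) and Hsc70-4 by 1.54 ± 0.20 (adjusted p = 0.00545). Of 63 respiratory chain genes none passed, with a median of 0.10. No Z-disc gene passed either, with a median of 0.09, and Zasp66 differed by -0.08 ± 0.13 (adjusted p = 0.863).

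Among single genes, pst was higher in Mhc7 than in Act88FKM88 by 5.01 ± 0.29 (adjusted p = 4.14e-05), with 5.15, 5.73 and 5.27 in Act88FKM88. ppl, the glycine cleavage system H protein gene, stood at 8.96, 9.88 and 9.53 in Mhc7, against 5.94, 6.27 and 6.00 in Act88FKM88 (adjusted p = 0.000115). CG15617 was lower by 9.47 ± 0.26 (adjusted p = 2.42e-07), with 13.63, 13.25 and 13.35 in Act88FKM88. Sfp53D and SkpB were lower by 4.19 and 3.66 on the log2 scale (adjusted p = 0.00365 and 3.19e-05). Polr1E, an RNA polymerase I subunit gene, stood at 3.49, 3.52 and 3.45 in Mhc7, against 7.38, 7.09 and 7.03 in Act88FKM88 (-3.68 ± 0.13, adjusted p = 1.41e-06). Cyp4e3 was lower by 3.19 ± 0.45 (adjusted p = 0.00821), and Cyp6a20 did not pass (-0.28 ± 0.28, adjusted p = 0.76). Of 21 calcium genes Calx, the sodium-calcium exchanger gene, was lower by 1.91 ± 0.20 (adjusted p = 0.00176) and Orai by 2.05 ± 0.48 (adjusted p = 0.0667). Of 25 immune genes 3 were lower in Mhc7, Drsl5, Drsl3 and Tep4, by 2.05, 1.86 and 1.04. Over all genes 0.943% passed lower, a share not matched to the levels of the calcium and immune lists.

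**Figure D5:**
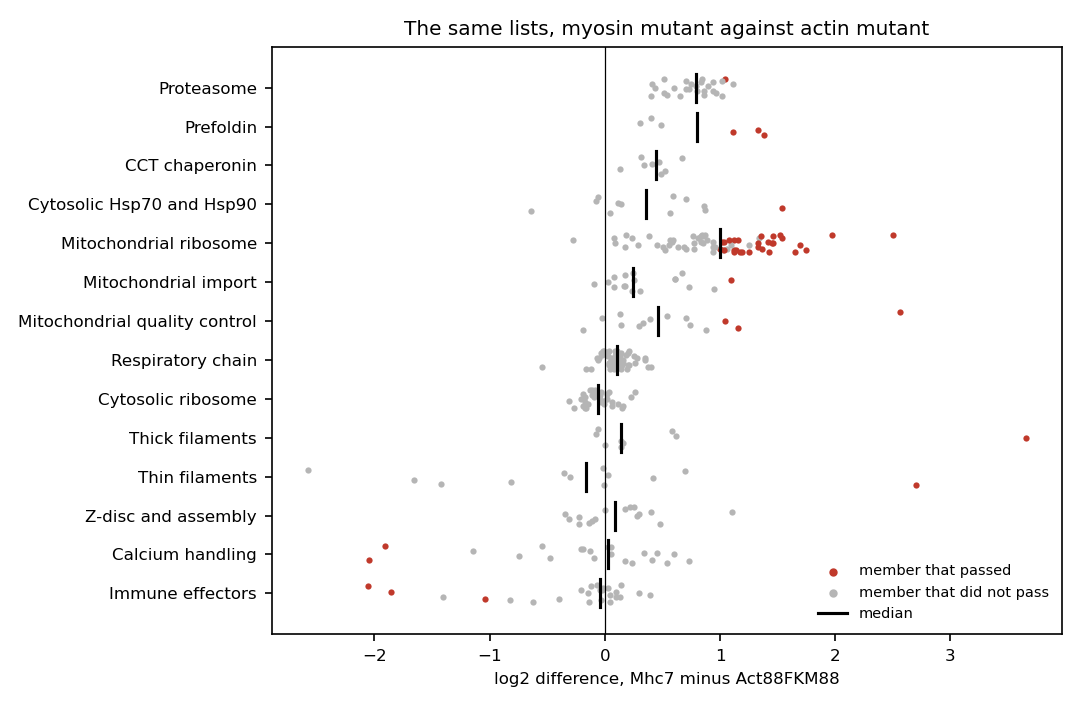
Log2 difference, Mhc7 minus Act88FKM88, for each measured gene of 14 lists, with red points for genes that passed, grey for those that did not and a bar at the median. The mitochondrial ribosome list has its median at 1.00 with 29 red points, while the respiratory chain list has its median at 0.10 and none.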

How the data were processed

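The authors deposited 1 log2 value per probe set and array, made with RMA per the submitters' processing notes, with version and joint normalization of the arrays not given in the sources used here. The number of arrays limits the precision. Of the 18769 probe sets that are no controls, 13647 name 1 gene, 402 several and 4720 none in the platform annotation, which gave 11982 genes after symbols were updated through Entrez identifiers in the RefSeq gene table (Release 6 assembly). With limma 3.58.1 (R 4.3.3), 1 mean was fitted for each genotype over the 9 arrays, and p-values were adjusted over all 18769 probe sets (two-sided). The study names SAM, an alternative here, rewritten in R. Single values per array had an exact permutation test. The members, the 35 gene lists and the 11 marker lists were chosen with earlier results of these data known. Counts are of measured members.

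Named genes were Mhc and Act88F, the 15 largest rises and 15 largest falls that passed, name 1 gene and do not overlap, up to 4 members per list and direction that passed or, where none did, the 2 of lowest p, all measured sarcomere genes, the 8 largest differences each way between the mutants, and markers. Other genes that passed against Act88FKM88 in lists, SERCA, and second probe sets were named after their values were seen. The fit was tested on simulated data over 18769 probe sets for Mhc7 against Canton-S. It called 80% of probe sets set 3-fold apart and 98% of those set 6-fold apart, with 1 false call. The simulated arrays had independent noise and no difference in shape between genotypes, and only probe sets above a minimum level were changed. The simulation therefore cannot show how many calls in the real arrays come from their difference in shape.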

Additional observations from a re-analysis of the deposited data

How the results depend on the processing

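Without a minimum fold 1334 probe sets passed against Canton-S (1048 higher, 286 lower) and 740 against Act88FKM88 (428 higher, 312 lower). Against Canton-S, repeated quantile normalization left 266 (144 higher, 122 lower), of which 213 were among the 524, removal of intensity trends 291 (183 higher) and centring 238 higher and 197 lower. The cause was not tested. Fits that left out 1 array gave 396 to 648 against Canton-S (342 to 567 higher, 47 to 102 lower, 47 without Mhc7 3) and 192 to 400 against Act88FKM88 (101 to 276 higher, 91 to 172 lower). The total was 192 without Act88FKM88 1 and 213 without Mhc7 3, and 124 were higher without Mhc7 2. SAM gave 629 and 473. Members that rose after repeated quantile normalization, removal of intensity trends and centring numbered 13, 19 and 25 of the proteasome, 1, 1 and 3 of prefoldin, 11, 24 and 38 of mitochondrial ribosomal proteins, 0, 0 and 2 of Hsp70 and Hsp90 genes, 2, 3 and 6 of import genes and 4, 4 and 8 of antioxidant genes. Left-out arrays gave 23 to 26, 5 to 6, 39 to 60, 2 to 6, 3 to 7 and 7 to 11. Of 93 named results that passed, 63 kept the call in all 9 such fits, and no named result changed sign while called. Of the same 93, 55 kept the call after repeated quantile normalization, 58 after removal of intensity trends and 67 after centring. With the replicate block 532 passed against Canton-S (451 higher, 81 lower) and 340 against Act88FKM88. After the genotype mean of each probe set was subtracted, arrays of the same number in Mhc7 and Canton-S correlated at -0.09, -0.32 and 0.07. Between Mhc7 and Act88FKM88 the values were 0.14, 0.43 and 0.03. The numbers were not taken as pairs, because the study calls the replicates independent.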

Other observations

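Of the probe sets that passed in Mhc7 against Canton-S, 75 name no gene or several. The largest rise among those that name none was that of probe set 1630934_at, at 9.89, 8.72 and 9.33 in Mhc7, against 4.32, 4.30 and 4.85 in Canton-S. It rose by 4.82 ± 0.40 (limma adjusted p = 0.000503) and was also higher than in Act88FKM88, by 5.80. Probe set 1634096_at stood at 10.82, 10.83 and 11.02 in Mhc7, against 7.25, 6.75 and 7.67 in Canton-S, and rose by 3.67 ± 0.21 (adjusted p = 5.28e-05).

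Some of the largest falls lie next to each other in the genome. In the gene order of the RefSeq table (Release 6), 10349 pairs of neighbouring protein-coding genes had both members measured, and 2 such pairs fell together. Sfp53D (-3.74) neighbours CG15617 (-8.49), and CG18343 (-1.85) neighbours SkpB (-4.25), both on chromosome arm 2R. All 4 genes were also lower in Mhc7 than in Act88FKM88. In 22 pairs both genes rose. Only 53 genes fell in all, and whether the neighbouring falls go with the Mhc7 allele or with other differences between the lines cannot be told apart.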
